A study of Mus musculus with 12 samples.

Results

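The genes described here are 9 members of the phosphoinositide 3-kinase (PI3K) and AKT pathway: the catalytic subunits Pik3cb, Pik3cd and Pik3cg, the regulatory or adaptor proteins Pik3r1, Pik3r5 and Pik3ap1, the kinases Akt1 and Akt2, and the lipid phosphatase Inpp5d. They were taken by symbol from a table of 38215 genes, and all 9 were found there and passed the filter on low counts. Their 287 exon bins, the non-overlapping pieces into which the annotation cuts a gene's exons, come from 354841 bins in all, and 245 of the 287 were tested.

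PI3K adds a phosphate to a membrane lipid to make PIP3, and PIP3 recruits AKT to the membrane, where AKT is activated. Inpp5d encodes SHIP1, a phosphatase of blood cells that removes a phosphate from PIP3. In macrophages this pathway is fed by growth factor, chemokine and Toll-like receptors, and Pik3ap1 (BCAP) couples Toll-like receptors to PI3K.

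The cells were RAW264.7, a mouse macrophage line of BALB/c origin, which stands in here for primary macrophages. Non-targeting (control) siRNA or siRNA against SF3a1, a subunit of the SF3a complex that works with the U2 snRNP at the 3′ end of introns, was nucleofected 24 hours before the cells received either no LPS or 20 ng/ml LPS, a bacterial lipopolysaccharide, for 4 hours. The 2 siRNAs, each without and with LPS, gave 4 groups of 3 libraries, all of them nucleofected. Per the study's methods, nucleofection and LPS exposure were each carried out 3 times, all in the 1 cell line, and p-values measure the spread between these repeats. Exon bins were read in 11 of the 12 libraries, since for replicate 3 of LPS with control siRNA they were not used here.

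Gene counts per library ran from 20659511 to 40840082 with control siRNA without LPS, from 13021502 to 41091887 with control siRNA with LPS, from 12746019 to 27789833 with SF3a1 siRNA without LPS, and from 17174058 to 36506558 with SF3a1 siRNA with LPS. Reads that the gene counting assigned to no annotated feature, which can include reads inside introns, ranged from 17.8 to 19.8% in the control siRNA libraries. They ranged from 18.2 to 27.2% after SF3a1 knockdown. The 27.2% was replicate 1 of SF3a1 siRNA without LPS, and the next highest knockdown library was at 21.6%. The part of these reads in the results below was not tested. Replicate 1 of each group, which was sequenced in 2 runs, had the highest CPM (gene counts scaled to a common library size by edgeR's TMM) of its group in 4 of 4 groups for 5 of the 9 genes (Pik3cd, Pik3r1, Pik3ap1, Akt1 and Akt2). The effect of that on the results was measured by the fit with the replicate number as a block, whose value is given where it changes a call.

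The macrophage label was checked against markers. The 7 macrophage markers (Adgre1, Csf1r, Cd68, Lyz2, Itgam, Spi1, Fcgr1) summed to 9327 to 14350 CPM per library, with Lyz2 (lysozyme) the most abundant at a mean of 6689 CPM. Among them Fcgr1, a high-affinity Fc receptor for IgG, was at 51.3, 73.8 and 67.4 CPM with control siRNA without LPS and at 565, 382 and 421 CPM with LPS, but at 37.6, 56.5 and 54.2 CPM without and 52.5, 39.8 and 56.1 CPM with LPS after SF3a1 knockdown. The LPS libraries with control siRNA stood above all the others, and the interaction described below was -2.83 ± 0.307 (log2, edgeR, adjusted p = 0.00149) for Fcgr1. The markers did not move together. With LPS and control siRNA, Itgam, Adgre1 and Spi1 rose with Fcgr1 (log2 fold changes 1.61, 0.89 and 0.78, edgeR, adjusted p = 0.011, 0.0346 and 0.00231) and Csf1r, the receptor of the growth factor CSF1, fell (-1.04, adjusted p = 0.000117). With SF3a1 siRNA and LPS, Fcgr1 (-3.20, edgeR, adjusted p = 6.14e-06) and Adgre1 (-0.71, 0.0765) fell against control siRNA and LPS, while Csf1r (0.69, 0.00248) and Spi1 (0.61, 0.0101) rose. LPS with SF3a1 siRNA raised Spi1 (0.80, edgeR, adjusted p = 0.00638) and lowered Csf1r (-0.55, 0.0278), and SF3a1 siRNA without LPS raised Spi1 (0.59, 0.0132) and Lyz2 (0.47, 0.0707). Their part in the results below was not tested. The 5 T cell markers summed to at most 0.158 CPM, with Cd8a at 0 counts in every library, and the 4 B cell markers to at most 0.544 CPM. Neutrophil markers summed to at most 1.39 CPM, fibroblast markers to 0.281 CPM and epithelial markers to 0.183 CPM.

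Both treatments registered at their own readouts. Sf3a1 was at 173, 216 and 185 CPM with control siRNA without LPS and at 27.1, 27.5 and 32.1 CPM with SF3a1 siRNA without LPS, a log2 fold change of -2.73 ± 0.204 (SE, edgeR, adjusted p = 1.14e-05). With LPS it was at 150, 194 and 157 CPM against 30.3, 26.7 and 45.0 CPM (log2 fold change -2.30 ± 0.200, edgeR, adjusted p = 1.47e-05). Tnf, which encodes the cytokine TNFα, rose from a mean of 35.4 ± 5.61 (SD, n = 3) to 1449 ± 675 CPM with LPS and control siRNA (edgeR, adjusted p = 5.08e-06).

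With SF3a1 siRNA, a larger share of the reads of Pik3r5, Akt1 and Pik3cb fell in 1 bin each that belongs to 1 annotated transcript and lies inside an intron of another. The Pik3r5 and Akt1 bins begin at the 5′ splice site of a coding exon, and continue into the intron that follows it, and the sequences across those 2 boundaries are printed to show this junction. They were read from GENCODE vM21 transcripts (GRCm38), 5′ to 3′ on the gene's strand, with the spliced exon in capitals and the intron bases in lower case. The Pik3r5 run covers chr11:68476305-68476604 (plus strand) and the Akt1 run chr12:112657562-112657735 (minus strand).
Pik3r5: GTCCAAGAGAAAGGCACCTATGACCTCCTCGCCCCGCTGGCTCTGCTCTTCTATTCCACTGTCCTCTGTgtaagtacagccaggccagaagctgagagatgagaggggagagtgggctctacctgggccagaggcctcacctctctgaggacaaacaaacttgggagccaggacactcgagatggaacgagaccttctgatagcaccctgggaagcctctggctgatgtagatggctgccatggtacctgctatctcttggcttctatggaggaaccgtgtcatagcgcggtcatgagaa
Akt1: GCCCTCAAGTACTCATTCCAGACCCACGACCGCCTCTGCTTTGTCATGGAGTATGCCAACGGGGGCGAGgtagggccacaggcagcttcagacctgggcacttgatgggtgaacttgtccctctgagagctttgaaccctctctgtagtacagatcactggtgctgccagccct
Each exon is 69 bases long and each intron begins with gt, the usual first 2 bases of an intron. Read in the exon's own frame, the first stop codon in the intron is a TGA at intron base 31 in Pik3r5 and at intron base 34 in Akt1, counted from 1 at the first intron base.

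Bin 9 of Pik3r5 (chr11, 68476374 to 68476764, 391 bases, noncoding) extends the last of the 4 exons of the transcript Pik3r5-204. Pik3r5 encodes p101, an adaptor that links the catalytic subunit p110γ to G protein βγ subunits. Without LPS the bin took 0.0788, 0.347 and 0.243% of all Pik3r5 bin counts with control siRNA and 0.916, 1.29 and 0.814% with SF3a1 siRNA. All 3 SF3a1 siRNA libraries were above all 3 controls, from 11, 18 and 13 counts in the controls and 86, 61 and 31 counts after knockdown. Relative to the rest of the gene, usage rose by a log2 fold change of 2.33 (edgeR diffSpliceDGE, adjusted p = 7.62e-05). With LPS the bin took 0.141 and 0.162% with control siRNA and 0.782, 1.74 and 0.911% with SF3a1 siRNA. All SF3a1 siRNA libraries were again higher, and the log2 fold change was 2.87 (edgeR diffSpliceDGE, adjusted p = 8.47e-06). The bin was called under all 14 alternatives in each comparison.

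Bin 12 of Akt1 (chr12, 112657562 to 112657666, 105 bases, noncoding) extends the last of the 4 exons of the transcript Akt1-203, which the annotation classes as a retained intron. Its share was smaller than that of the Pik3r5 bin. Without LPS it took 0.0267, 0.0167 and 0.0166% of the Akt1 bin counts with control siRNA (15, 4 and 4 counts) and 0.111, 0.102 and 0.111% with SF3a1 siRNA (30, 12 and 9 counts). The groups did not overlap, and the log2 fold change was 2.35 (edgeR diffSpliceDGE, adjusted p = 0.0408). With LPS it took 0.0186 and 0.0257% with control siRNA and 0.0990, 0.247 and 0.0867% with SF3a1 siRNA (log2 fold change 2.70, edgeR diffSpliceDGE, adjusted p = 0.0892). All SF3a1 siRNA libraries were higher here too, but the counts are low. Without LPS the call was lost with limma voom and diffSplice (adjusted p = 0.187), without replicate 2 or 3 of control siRNA without LPS (edgeR, adjusted p = 0.281 and 0.288) and without replicate 1, 2 or 3 of SF3a1 siRNA without LPS (0.175, 0.119 and 0.128). With LPS it was lost with limma voom and diffSplice (adjusted p = 0.413), without replicate 1 or 2 of control siRNA with LPS (edgeR, adjusted p = 1 and 0.263, where the 1 library left in that group is assumed to vary like the other groups), without replicate 2 or 3 of SF3a1 siRNA with LPS (0.796 and 0.104), without replicate 2 of control siRNA without LPS (0.103) and without replicate 2 or 3 of SF3a1 siRNA without LPS (0.103 and 0.111).

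Bin 27 of Pik3cb (chr9, 99139511 to 99139925, 415 bases) is the first exon of the transcript Pik3cb-203, classed as subject to nonsense-mediated decay, and lies inside an intron of another transcript. Pik3cb encodes the catalytic subunit p110β. Without LPS the bin took 0.0311, 0.148 and 0.0882% of all Pik3cb bin counts with control siRNA (1, 3 and 2 counts) and 0.533, 0.316 and 0.937% with SF3a1 siRNA (17, 7 and 21 counts). The groups did not overlap, and the log2 fold change was 2.80 (edgeR diffSpliceDGE, adjusted p = 0.0613). With LPS it took 0.279 and 0% with control siRNA and 1.09, 0.576 and 0.528% with SF3a1 siRNA. All SF3a1 siRNA libraries were higher there too, but the bin was not called. The call without LPS was lost with limma voom and diffSplice (adjusted p = 0.550), without replicate 1, 2 or 3 of control siRNA without LPS (edgeR, adjusted p = 0.497, 0.123 and 0.344) and without replicate 3 of SF3a1 siRNA without LPS (0.670).

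**Figure D1:**
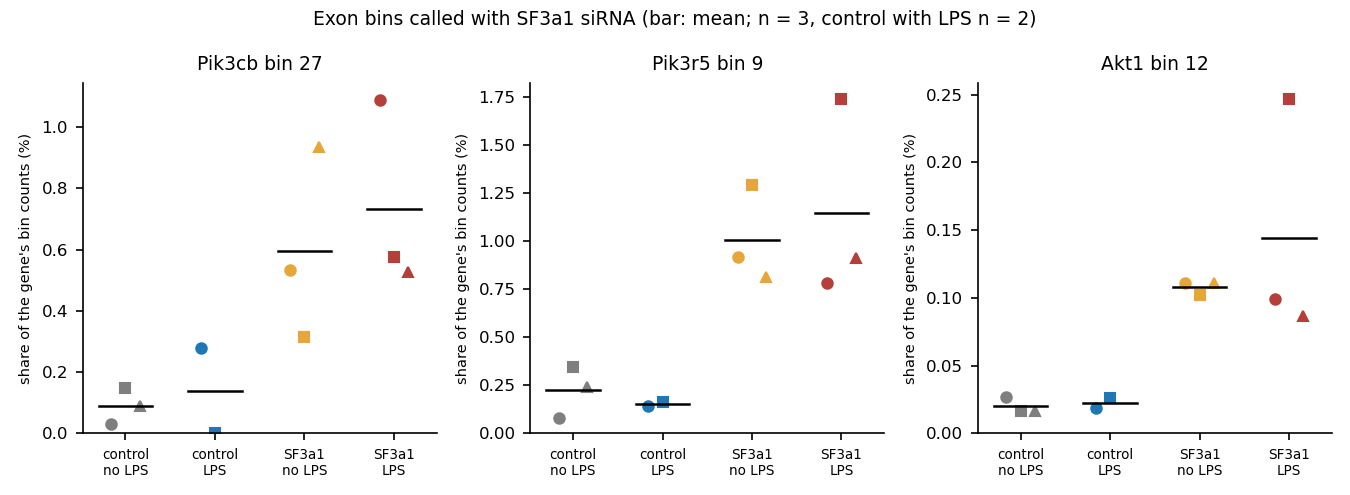
Share of the gene's bin counts (%, linear axis from 0) in Pik3cb bin 27, Pik3r5 bin 9 and Akt1 bin 12, with 1 point per library, the replicate shown by its symbol, and a bar at the group mean (n = 3; n = 2 for control siRNA with LPS). In Pik3r5 the 5 control siRNA libraries reach at most 0.347% and the 6 SF3a1 siRNA libraries start at 0.782%. The Pik3cb bin was called without LPS. With LPS it was not called, though its SF3a1 siRNA libraries (from 0.528%) also lay above the control siRNA libraries (at most 0.279%).

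Those 3 bins were the member bins called with SF3a1 siRNA without LPS, against 0.626% of all 153624 tested bins called in that comparison. With LPS 2 of the 245 member bins were called, against 0.492% of all bins. With edgeR none of the member bins was called for LPS with control siRNA (background 0.0801% of all bins), for LPS with SF3a1 siRNA (0.0254%) or for the interaction (0%), where 2, 4 and 2 of the 245 member bins had an unadjusted p under 0.05, against 1.97, 1.29 and 1.35% of all bins. limma voom and diffSplice likewise called none of the member bins in those 3 comparisons. In the genes with no called bin, bin 3 of Pik3cg with LPS and bin 11 of Inpp5d without LPS came closest in the SF3a1 siRNA comparisons (edgeR, unadjusted p = 0.027 and 0.0271), and both had an adjusted p of 1. In Pik3cb with LPS, the smallest was that of bin 17, a coding bin of 97 bases (log2 fold change 1.64, edgeR, adjusted p = 0.507).

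The share of reads inside introns was also summed over each gene, and in Pik3r5 that sum includes bin 9. Bins inside an annotated intron of any transcript held 1.75 ± 0.137% of its bin counts with control siRNA and 2.86 ± 0.260% with SF3a1 siRNA without LPS (SD, n = 3), a difference of 1.11 points (two-sided exact permutation p = 0.1, which 3 against 3 cannot go below). With LPS the shares were 2.05 ± 0.587% (n = 2) and 2.93 ± 0.392% (n = 3), also without overlap. With bin 9 left out, a choice made after seeing the data, the Pik3r5 shares were 1.53 ± 0.271% and 1.87 ± 0.0862% without LPS (n = 3, exact permutation p = 0.2) and 1.90 ± 0.602% (n = 2) and 1.81 ± 0.132% (n = 3) with LPS, and the groups overlapped in both. Between libraries of the same replicate number that share was higher after knockdown in 3 of 3 pairs without LPS and in 1 of 2 with LPS. With the bins counted as retained introns alone (1 of the 10 intron bins of Akt1), none of the members was higher without LPS. The rule behind that count is not given here. The called Akt1 bin cannot be the 1 counted, since its share without LPS was higher without overlap. It was at most 0.0267% with control siRNA and at least 0.102% with SF3a1 siRNA. With bin 9 included, Pik3r5 was the 1 member whose share was higher without overlap in each comparison, while 13.9% of 5339 genes were so without LPS and 18.3% with LPS. In Akt1 the share was 11.3 ± 1.55% with control siRNA and 11.2 ± 1.72% with SF3a1 siRNA without LPS. Inpp5d had 5.13 ± 0.929% and 6.49 ± 0.557% without LPS, and 4.97 ± 0.271% (n = 2) and 6.25 ± 1.37% (n = 3) with LPS. Its ranges overlapped (exact permutation p = 0.2 without and 0.4 with LPS), but the share was higher after knockdown in each pair of the same replicate number, from 6.20, 4.52 and 4.66% to 7.03, 6.53 and 5.92% without LPS and from 5.16 and 4.78% to 7.29 and 6.77% with LPS. Besides Pik3r5 with bin 9 included, Inpp5d was the 1 gene of the 9 that was higher in every pair of both comparisons. Replicate 3 of SF3a1 siRNA with LPS, which has no pair, was at 4.70% in Inpp5d, below both control siRNA libraries with LPS. Such pairs were not counted over all genes. The mean difference was positive in 59.2% of the 5339 genes without LPS and in 54.1% with LPS. Pik3ap1 has no bin inside an intron.

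Pik3r1 encodes the regulatory subunits p85α, p55α and p50α from alternative first exons. The annotation used holds 2 of its transcripts, a long and a shorter one, so only 1 shorter first exon could be read. A short form with another first exon could not be seen. Between these 2 transcripts, the bins that tell them apart were read almost only for the long one. The 7 bins found only in the long transcript held 24.7 to 38.8% of the gene's bin counts over the 11 libraries. The 448-base first exon of the shorter annotated transcript held 4 counts over all 11 libraries, none of them in the 6 libraries without LPS. With LPS they were 1 and 2 counts in the control siRNA libraries and 1, 0 and 0 in the SF3a1 siRNA libraries. As a share of the gene's bin counts, control siRNA with LPS (0.0720 and 0.548%) was above control siRNA without LPS (0% in each) and above SF3a1 siRNA with LPS (0.0529, 0 and 0%) without overlap (two-sided exact permutation p = 0.1 each, the smallest that 2 against 3 allows), a separation that rests on these 4 counts.

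At the gene level the 9 genes differed widely in abundance. On the RPKM scale, which divides CPM by the kilobases of exon, levels with control siRNA without LPS were 149.8 ± 14.6 (SD, n = 3) for Akt1, 43.4 ± 1.76 for Inpp5d and 35.2 ± 5.34 for Pik3r5. Pik3cd (29.6 ± 9.30) and Pik3ap1 (29.5 ± 6.13) followed, and these 2 and Pik3r5 do not differ beyond their spread. Pik3cg (11.3 ± 1.33), Pik3cb (9.17 ± 1.39) and Akt2 (8.79 ± 1.47) overlapped as well, and Pik3r1 was lowest at 5.86 ± 0.952. The annotation also holds a processed pseudogene, Akt2-ps, counted on its own at a mean of 14.5 CPM with control siRNA without LPS. Of the 1420 words of 30 bases in its transcript, 68.8% also occur in an Akt2 transcript, so reads could be split between them and the level of Akt2 is uncertain.

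**Figure D2:**
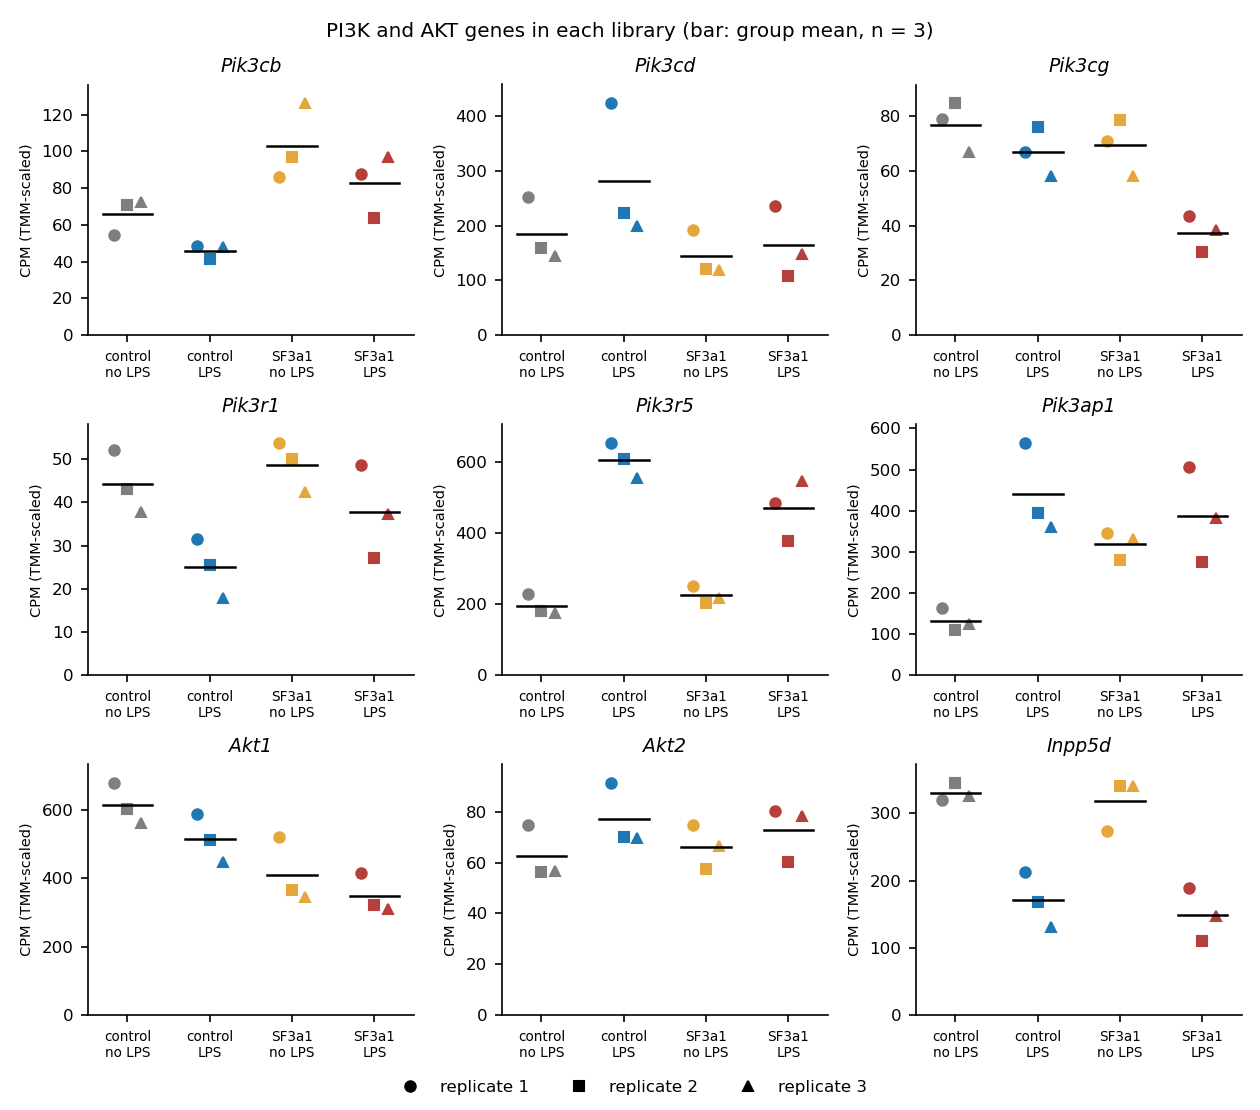
Level of each of the 9 genes in each library, in CPM scaled by TMM (linear axis from 0), by siRNA and LPS, with the replicate shown by its symbol and a bar at the group mean (n = 3). Pik3r5 and Inpp5d separate by LPS with either siRNA, and Pik3ap1 is low only in the 3 libraries with control siRNA without LPS, which lie between 109 and 162 CPM.

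LPS with control siRNA raised Pik3r5 and Pik3ap1 and lowered Inpp5d, Pik3r1 and Pik3cb. Of the 9 genes 2 rose, where 13.8% of the 14983 tested genes rose, and 3 fell, where 18.3% of tested genes fell. The libraries of the 2 groups did not overlap for 5 of the 9 genes, and for 40.2% of all tested genes. Pik3r5 was at 229, 181 and 175 CPM without LPS and at 655, 610 and 558 CPM with LPS. The groups were far apart, a 3.11-fold rise (log2 fold change 1.64 ± 0.169, edgeR, adjusted p = 1.35e-05). Pik3ap1 went from 162, 109 and 125 to 565, 394 and 359 CPM. Every LPS library was above every library without LPS, a 3.33-fold rise (log2 fold change 1.73 ± 0.244, edgeR, adjusted p = 0.000184).

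Among the genes that fell, Inpp5d, the phosphatase SHIP1, was at 320, 345 and 325 CPM without LPS and at 213, 168 and 131 CPM with LPS. All 3 LPS libraries were lower, and the log2 fold change was -0.95 ± 0.210 (edgeR, adjusted p = 0.00453). Pik3r1 was at 52.1, 43.1 and 37.9 CPM without LPS and at 31.5, 25.6 and 17.8 CPM with LPS. It too did not overlap (log2 fold change -0.83 ± 0.240, edgeR, adjusted p = 0.0221). Pik3cb fell by less, from 54.4, 70.9 and 72.6 to 48.6, 41.5 and 47.9 CPM (log2 fold change -0.52 ± 0.194, edgeR, adjusted p = 0.069). That call was lost without replicate 2 or 3 of control siRNA without LPS (edgeR, adjusted p = 0.183 and 0.207) and without replicate 2 or 3 of control siRNA with LPS (0.193 and 0.112).

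Pik3cd, the leukocyte subunit p110δ, had 252, 160 and 145 CPM without LPS and 424, 224 and 199 CPM with LPS (log2 fold change 0.61 ± 0.350, edgeR, adjusted p = 0.246). The groups overlapped because replicate 1 was the highest in both. With the replicate number as a block, Pik3cd (edgeR, adjusted p = 0.00419), Akt1 (0.072) and Akt2 (0.0551) also passed, for 8 of the 9 genes, where the block called 43.9% of all tested genes. Pik3cd also passed with no filter on low counts (edgeR, adjusted p = 0.0395) and Akt2 without replicate 1 of control siRNA without LPS (0.099). Akt1 had a log2 fold change of -0.25 ± 0.185 and Akt2 of 0.30 ± 0.178 without the block. Pik3cg, the p110γ catalytic subunit that Pik3r5 binds, had a log2 fold change of -0.20 ± 0.174 (edgeR, adjusted p = 0.474).

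With SF3a1 siRNA, LPS raised Pik3r5 and lowered Inpp5d and Pik3cg. Of the 9 genes 1 rose, where 6.6% of tested genes rose, and 2 fell, where 4.06% of tested genes fell. Groups without overlap were seen for 3 of the 9 genes, and for 24.8% of all tested genes. Pik3r5 rose from 252, 204 and 219 to 484, 379 and 547 CPM, a 2.09-fold rise without overlap (log2 fold change 1.06 ± 0.167, edgeR, adjusted p = 0.00133). Inpp5d fell from 273, 341 and 340 to 189, 111 and 148 CPM (log2 fold change -1.09 ± 0.211, edgeR, adjusted p = 0.00604). Pik3cg fell as well, from 71.0, 78.4 and 58.3 to 43.4, 30.5 and 38.5 CPM, with no overlap (log2 fold change -0.88 ± 0.176, edgeR, adjusted p = 0.00722). Pik3ap1 was at 346, 280 and 331 CPM without LPS and at 507, 274 and 381 CPM with it, and the groups overlapped (log2 fold change 0.28 ± 0.237, edgeR, adjusted p = 0.628).

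**Figure D3:**
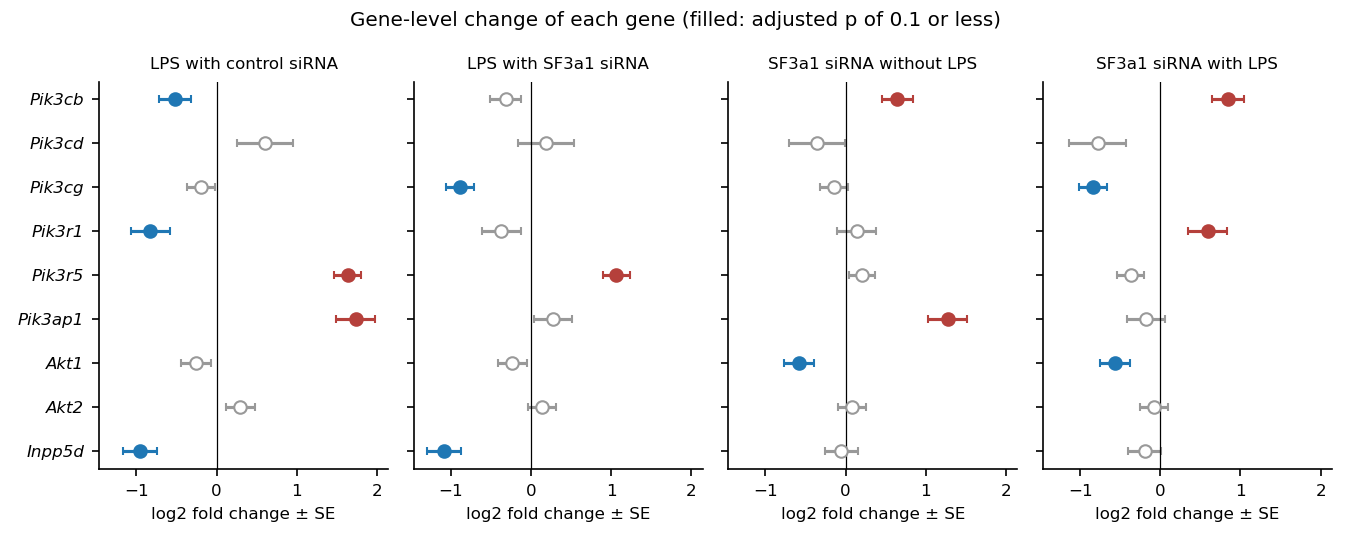
log2 fold change of each gene with its SE in the 4 comparisons, from the edgeR fit over all 12 libraries; filled points passed an adjusted p of 0.1 (red higher, blue lower) and open points did not. Pik3r5 is to the right of 0 in both LPS comparisons (1.64 and 1.06), and Pik3cb is to the right in both SF3a1 siRNA comparisons (0.64 and 0.85).

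SF3a1 siRNA without LPS raised Pik3ap1 and Pik3cb and lowered Akt1. Of the 9 genes 2 rose, where 13.7% of tested genes rose, and 1 fell, where 20.1% of tested genes fell. Groups without overlap were seen for 3 of the 9 genes, and for 45.6% of all tested genes. Pik3ap1 went from 162, 109 and 125 CPM with control siRNA to 346, 280 and 331 CPM, a 2.42-fold rise (log2 fold change 1.27 ± 0.241, edgeR, adjusted p = 0.00204). The groups were clearly apart, and the knockdown level without LPS lay within the range of the libraries with LPS and SF3a1 siRNA. This comparison and that of LPS with control siRNA share the 3 libraries of control siRNA without LPS, where Pik3ap1 was lowest. Pik3cb was at 54.4, 70.9 and 72.6 CPM with control siRNA and at 85.8, 96.9 and 126 CPM with SF3a1 siRNA (log2 fold change 0.64 ± 0.193, edgeR, adjusted p = 0.0266). It rose without overlap, but the call was lost without replicate 3 of SF3a1 siRNA without LPS (edgeR, adjusted p = 0.131). Akt1 was at 678, 603 and 560 CPM with control siRNA and at 519, 365 and 345 CPM with SF3a1 siRNA, with no overlap (log2 fold change -0.58 ± 0.185, edgeR, adjusted p = 0.0341). That call was lost without replicate 1 or 2 of control siRNA without LPS (edgeR, adjusted p = 0.180 and 0.122) and without replicate 2 or 3 of SF3a1 siRNA without LPS (0.135 and 0.143). With the block, which called 47.1% of all tested genes, Pik3cd also passed (log2 fold change -0.36, edgeR, adjusted p = 0.0481). Without the block and without replicate 1 of control siRNA without LPS, its log2 fold change was 0.03 (edgeR, adjusted p = 0.973), and that of Pik3r5, which was not called otherwise, was 0.44 (0.0896).

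SF3a1 siRNA with LPS raised Pik3cb and Pik3r1 and lowered Pik3cg and Akt1. Of the 9 genes 2 rose, where 18.4% of tested genes rose, and 2 fell, where 20.4% of tested genes fell. Groups without overlap were seen for 4 of the 9 genes, and for 39.1% of all tested genes. Pik3cb was at 48.6, 41.5 and 47.9 CPM with control siRNA and at 87.7, 63.6 and 96.9 CPM with SF3a1 siRNA, a 1.80-fold rise without overlap (log2 fold change 0.85 ± 0.195, edgeR, adjusted p = 0.00565). Pik3cg was at 66.9, 76.1 and 57.9 CPM with control siRNA and at 43.4, 30.5 and 38.5 CPM with SF3a1 siRNA (log2 fold change -0.84 ± 0.176, edgeR, adjusted p = 0.0033). All 3 knockdown libraries were lower, the opposite direction to Pik3cb. Akt1 was at 588, 512 and 447 CPM with control siRNA and at 415, 321 and 309 CPM with SF3a1 siRNA (log2 fold change -0.57 ± 0.185, edgeR, adjusted p = 0.0352). Its groups did not overlap, and the call was lost without replicate 3 of SF3a1 siRNA with LPS (edgeR, adjusted p = 0.123).

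Pik3r1 was at 31.5, 25.6 and 17.8 CPM with control siRNA and LPS and at 48.6, 27.2 and 37.2 CPM with SF3a1 siRNA and LPS (log2 fold change 0.59 ± 0.240, edgeR, adjusted p = 0.0802). The groups overlapped, and the call was lost in the fit of the 2 groups alone (edgeR, adjusted p = 0.122), without replicate 2 or 3 of control siRNA with LPS (0.148 and 0.259) and without replicate 1 or 3 of SF3a1 siRNA with LPS (0.305 and 0.141). Pik3cd and Pik3r5 missed the threshold, with log2 fold changes of -0.78 ± 0.351 (edgeR, adjusted p = 0.112) and -0.37 ± 0.165 (0.110). With the block, which called 50.9% of all tested genes, both passed (edgeR, adjusted p = 0.000526 for Pik3cd and 0.0325 for Pik3r5). Pik3cd also passed with no filter on low counts (edgeR, adjusted p = 0.0028), with DESeq2's Wald test (0.0971), and without replicate 1 of SF3a1 siRNA with LPS (edgeR, log2 fold change -1.14, adjusted p = 0.038) or replicate 3 of control siRNA with LPS (0.0774). Pik3r5 passed without replicate 3 of SF3a1 siRNA with LPS (edgeR, adjusted p = 0.0674). Inpp5d and Akt2 had log2 fold changes of -0.19 ± 0.209 and -0.08 ± 0.178 in this comparison and passed under no alternative.

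Pik3ap1 was the gene whose LPS response differed with SF3a1 siRNA. The interaction, the LPS effect with SF3a1 siRNA minus that with control siRNA, was -1.46 ± 0.337 on the log2 scale (edgeR, adjusted p = 0.0462). Of the 9 genes 1 was lower in the interaction, where 1.94% of tested genes were lower and 1.54% higher. The call was lost without replicate 2 or 3 of control siRNA without LPS (edgeR, adjusted p = 0.107 and 0.111), without replicate 3 of SF3a1 siRNA without LPS (0.118) and without replicate 3 of SF3a1 siRNA with LPS (0.104), while the value stayed between -1.70 and -1.23 over 16 alternatives. Pik3cg had an interaction of -0.69 ± 0.247 (edgeR, adjusted p = 0.214) and Pik3r5 of -0.57 ± 0.233 (0.292), and both passed with the block (0.0741 and 0.0786), for 3 of the 9 genes, where the block called 11.7% of all tested genes. Akt1, by contrast, had an interaction of 0.02 ± 0.261, and its fall with SF3a1 siRNA was -0.58 without LPS and -0.57 with LPS.

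The share of each gene within its functional class does not depend on library scaling. Among the 4 class I catalytic subunits, by counts per kilobase of exon, Pik3cd held 52.0 ± 8.37% with control siRNA without LPS and 66.8 ± 7.91% with LPS (SD, n = 3; two-sided exact permutation p = 0.1). With SF3a1 siRNA and LPS its share was 53.5 ± 6.05%, below control siRNA with LPS in every library (exact permutation p = 0.1). The share of Pik3cb went the other way, from 10.2 ± 2.68% in controls to 24.5 ± 4.41% after knockdown, both with LPS (exact permutation p = 0.1). Its share without LPS was 16.8 ± 4.66% with control siRNA and 26.9 ± 7.10% with SF3a1 siRNA, where 1 knockdown library lay within the control range (exact permutation p = 0.2). Between libraries of the same replicate number it was higher after knockdown in each of the 3 pairs, at 11.6 against 19.8%, 18.3 against 26.8% and 20.5 against 34.0%. Pik3cg held 19.0 ± 3.47% with SF3a1 siRNA without LPS and 11.7 ± 1.55% with LPS (exact permutation p = 0.1). Paired in this way, the Pik3cb and Pik3cg shares were lower with LPS, and the Pik3cd share higher, in 3 of 3 pairs with either siRNA, and the Pik3cd and Pik3cg shares were lower after knockdown in 3 of 3 pairs with and without LPS. The unpaired groups overlapped in several of these. The Pik3cg share with control siRNA went from 20.4 ± 2.74% to 15.7 ± 4.34% with LPS (SD, n = 3, exact permutation p = 0.2), and the Pik3cd share without LPS from 61.7, 47.5 and 47.0% to 51.2, 38.3 and 36.9% with knockdown (exact permutation p = 0.3).

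Of the p110γ adaptors, Pik3r5 held 89.6 ± 0.396% of Pik3r5 plus Pik3r6 (p84) with control siRNA without LPS and 93.4 ± 0.343% with SF3a1 siRNA, and 90.8 ± 1.78% and 94.4 ± 1.52% with LPS (exact permutation p = 0.1 each). At the gene level Pik3r6 was called lower after knockdown (log2 fold change -0.53 without and -1.15 with LPS). Pik3r5 was called in neither comparison (0.20 and -0.37).

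**Figure D4:**
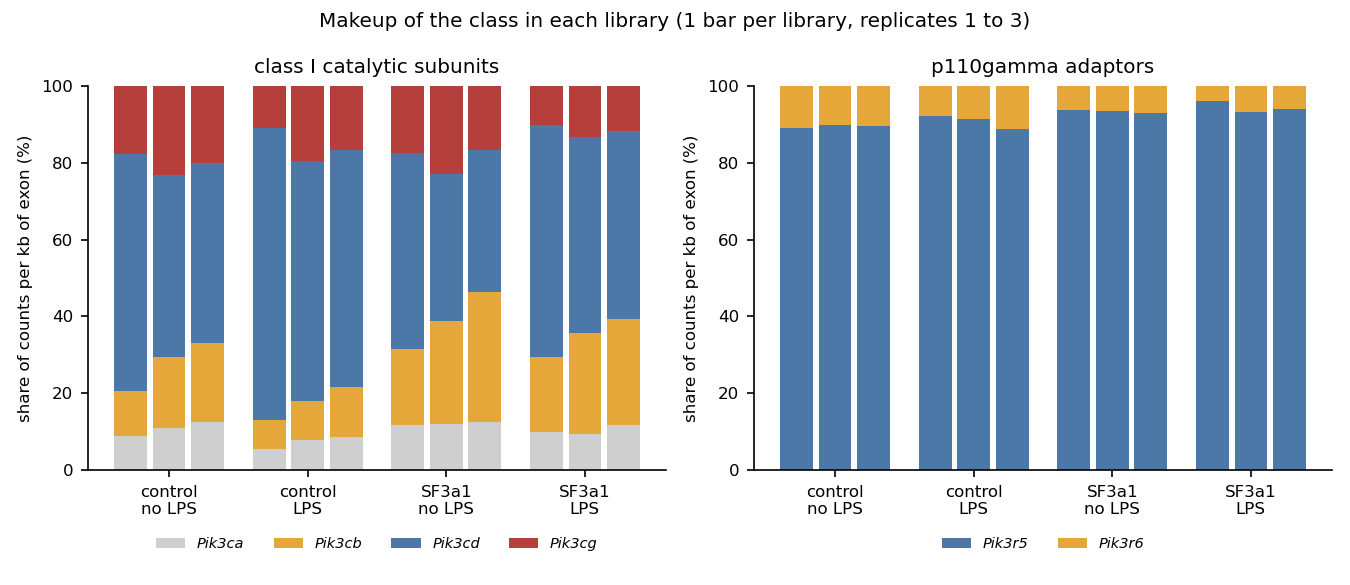
Share of each gene in the counts per kilobase of exon of its class (%), with 1 stacked bar per library (replicates 1 to 3 from left to right in each group), for the class I catalytic subunits and the p110γ adaptors Pik3r5 and Pik3r6. Pik3cb takes a mean of 10.2% in controls and 24.5% after knockdown, both with LPS, and Pik3r5 takes a mean of 89.6 to 94.4% of the adaptor bar in the 4 groups.

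The other genes of the pathway were taken from a list of 66 genes, 59 of which were tested. LPS with control siRNA raised 4 of the 59 and lowered 13, where 13.8% of all tested genes rose and 18.3% fell (medians of the log2 fold change -0.08 for the list and -0.02 for all tested genes). Pik3r6, the second adaptor of p110γ, rose beside Pik3r5 (log2 fold change 1.42 ± 0.219, edgeR, adjusted p = 0.000377), and Blnk, a signalling adaptor, rose by 1.34 ± 0.212 (edgeR, adjusted p = 0.000449). Trib1, a pseudokinase, rose by 1.17 ± 0.236 (edgeR, adjusted p = 0.00262). The largest falls were those of Gab3 (-2.51 ± 0.929), Pik3ip1, an inhibitor of the catalytic subunit (-1.98 ± 0.650), and Phlpp1, a phosphatase of AKT (-1.38 ± 0.484), with edgeR adjusted p of 0.0664, 0.0395 and 0.0527. Gab3 and Pik3ip1 were near the limit of detection, at means of 0.366 and 0.704 CPM before LPS, and Gab3 had 10, 8 and 12 counts without LPS and 2, 0 and 2 with LPS. With SF3a1 siRNA, LPS raised 2 of the 59 (Blnk and Pik3r6) and lowered 5, where 6.6% of all tested genes rose and 4.06% fell. Among the 5 were Pik3ip1 (-2.31 ± 0.604, edgeR, adjusted p = 0.0352), Arap3 (-1.04 ± 0.197, adjusted p = 0.00513) and Inpp5k (-0.86 ± 0.199, adjusted p = 0.0186). Some of these calls were lost without 1 library, at the most for Gab3 without replicate 1 of control siRNA with LPS (edgeR, adjusted p = 0.188), for Phlpp1 without replicate 2 of that group (0.167), and for Pik3ip1 without replicate 1 of that group (0.122). Without that replicate the Pik3ip1 log2 fold change with control siRNA was -1.20, against -1.98. For LPS with SF3a1 siRNA, calls were lost for Pik3ip1 without replicate 3 with LPS (edgeR, adjusted p = 0.114) and for Pik3r6 without replicate 2 without LPS (0.169).

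SF3a1 siRNA raised 7 and lowered 7 of the 59 without LPS, and raised 11 and lowered 10 with LPS. Over all tested genes 13.7% rose and 20.1% fell without LPS, and 18.4% rose and 20.4% fell with LPS. Foxo3, a transcription factor that AKT inhibits, rose in both comparisons: without LPS its mean was 47.3 ± 5.63 CPM in controls (SD, n = 3) against 144 ± 16.5 CPM after knockdown (log2 fold change 1.61 ± 0.262, edgeR, adjusted p = 0.00079), and with LPS 29.2 ± 10.8 against 93.5 ± 28.0 CPM (1.67 ± 0.264, adjusted p = 0.000545). Trib1 rose without LPS (1.47 ± 0.238, edgeR, adjusted p = 0.00076), as did the adaptor Gab2 (1.02 ± 0.356, adjusted p = 0.051). With LPS, Gab3 (2.83 ± 0.929, edgeR, adjusted p = 0.0351) and Phlpp1 (1.71 ± 0.488, adjusted p = 0.0183) were the other largest rises. The groups overlapped for both. Gab3 had 2, 0 and 2 counts with control siRNA and 3, 10 and 15 with SF3a1 siRNA, so the size of its rise rests on 4 control counts. Phlpp1 was at 17.1, 5.88 and 6.28 CPM with control siRNA and at 56.2, 14.1 and 26.8 CPM with SF3a1 siRNA. Trib3, an inhibitor of AKT, fell in both (-1.91 ± 0.684 and -1.71 ± 0.634, edgeR, adjusted p = 0.0568 and 0.0587). So did Phlpp2 (-0.91 ± 0.3 without and -0.76 ± 0.303 with LPS, edgeR, adjusted p = 0.0403 and 0.0769) and Pik3r6 (-0.53 ± 0.219 without and -1.15 ± 0.218 with LPS, edgeR, adjusted p = 0.0958 and 0.00175). The regulatory subunit Pik3r2 fell without LPS (-0.58 ± 0.209, edgeR, adjusted p = 0.0568) and the inhibitory receptor Fcgr2b with LPS (-1.12 ± 0.281, edgeR, adjusted p = 0.00946). Foxo3 in both comparisons, Trib1 without LPS, and Pik3r6 and Fcgr2b with LPS kept their calls without any 1 library. The other largest changes did not, with the highest adjusted p without LPS for Pik3r2 (edgeR, 0.338) and Phlpp2 (0.136) without replicate 1 of control siRNA, for Trib3 (0.169) without replicate 3 of control siRNA, and for Gab2 (0.142) without replicate 1 of SF3a1 siRNA. With LPS it was highest for Trib3 (log2 fold change -1.10, edgeR, adjusted p = 0.225) without replicate 1 of control siRNA. For Gab3 (edgeR, adjusted p = 0.132) that was without replicate 3 of SF3a1 siRNA. For Phlpp1 (log2 fold change 1.04, edgeR, adjusted p = 0.101) it was without replicate 1 of SF3a1 siRNA. With the block, 27 of the 59 were called for LPS with control siRNA, against 43.9% of all tested genes, 16 for LPS with SF3a1 siRNA, against 20.8%, 30 for SF3a1 siRNA without LPS, against 47.1%, and 4 for the interaction, against 11.7%.

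**Figure D5:**
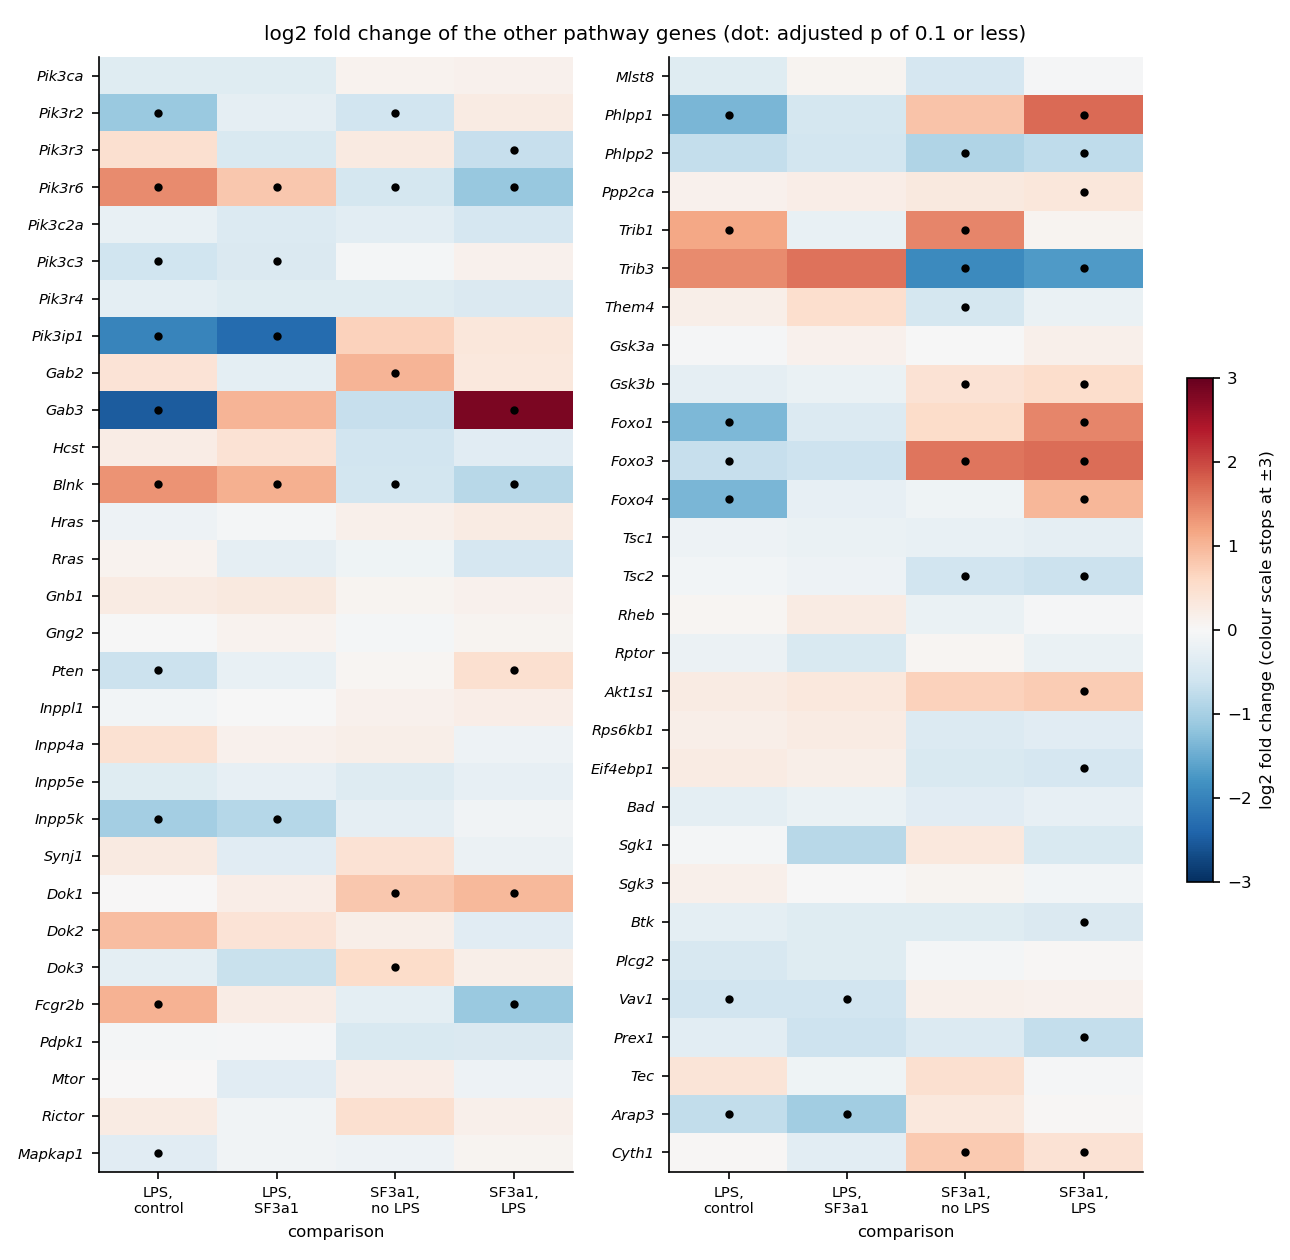
log2 fold change (colour, scale from -3 to 3) of the 59 tested pathway genes outside the 9 in the 4 comparisons, with a dot where edgeR's adjusted p was 0.1 or less. Foxo3 is red in both SF3a1 siRNA columns (1.61 and 1.67), and Pik3r6 is red in both LPS columns (1.42 and 0.80).

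Across the 12 libraries, the genes of at least 10 CPM whose log2 CPM followed Pik3r5 most closely were Plagl2 (Pearson r = 0.991), Znfx1 (0.988) and Kdm6b (0.983), out of 9295 genes compared. For Pik3cg they were Adam9 (0.947), Nlrp1b (0.899) and Ssh2 (0.899). These values are descriptions over libraries that fall into 4 groups, and no test was made of them.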

How the data were processed

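Per the labels and the study's methods, polyadenylated RNA was sequenced on the Ion Proton, reads were mapped to mm10 with GSNAP 2013-11-27 and uniquely mapping reads were kept. The authors counted reads per gene with HTSeq and per bin with the script of DEXSeq, and the deposited counts are not normalized. Whether counting used strand is not given in the sources used here.

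Counts were fitted in R 4.3.3 with edgeR 4.0.16 (TMM, filterByExpr, quasi-likelihood, 4 group means, all 12 libraries), and bins with diffSpliceDGE over genes with at least 2 kept bins. Calls are at a Benjamini-Hochberg adjusted p of 0.1 over all tested genes or bins, and SE is the log2 fold change divided by the square root of F. DESeq2 1.42.0 and limma 3.58.1 served as alternatives, and both scripts were tested on simulated data. CPM used TMM library sizes. RPKM and class shares used the summed exon length in GENCODE vM21, without transcripts numbered above a cutoff, which were taken as later than the authors' annotation. Bins were placed by rebuilding them from the same transcripts. The rebuilt number of bins was the same as in the counts for genes holding 79.3% of bins and for all of the 9 genes. The cutoff was chosen because it gave the most genes with the same number, so that match is not independent of the choice. The match is of the number of bins per gene, and the bin positions given here rest on it. Pik3r1 matched after both its transcripts were given a common 3′ end.

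The members and gene lists were chosen with earlier results of these data known. All 9 genes were named. One gene of the pathway list, and the shares that need it, are not reported here. Of their bins, those called and the smallest p per gene were followed, and of the pathway list up to 3 called genes with the largest rise and fall per comparison.

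Libraries with the same replicate number deviated together from their group means: the correlation was above 0.1 in each of 18 pairs (0.13 to 0.549, against -0.474 to 0.298 for other numbers), so the replicate number was also fitted as a block. No 2 libraries of the same group agreed within sampling noise (chi-squared per degree of freedom from 9.39 to 126 over the 12 pairs within groups).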

Additional observations from a re-analysis of the deposited data

Results flagged for a closer look

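The difference in LPS response between SF3a1 and control siRNA passed the test in 6 of the genes named, which come from different sets. Pik3ap1 was 1 of the 9 genes, and Trib1 and Foxo4 were 2 of the 59 pathway genes. Over all tested genes 1.54% were higher and 1.94% lower. Fcgr1 was taken from the markers, Il1b from the checks of LPS, and Znfx1 from the genes picked for their correlation with a member. The calls of Pik3ap1, Trib1, Foxo4 and Il1b were lost without some single libraries, and those of Fcgr1 and Znfx1 were kept under all 16 alternatives. For Pik3ap1 the interaction was -1.46 on the log2 scale (edgeR, adjusted p = 0.0462), and at most 0.118 without replicate 3 of SF3a1 siRNA without LPS. For Trib1, which rose with LPS and control siRNA by 1.17 and was at -0.22 with SF3a1 siRNA, it was -1.38 (edgeR, adjusted p = 0.0531). That call was lost without 6 of the 12 libraries in turn, with the highest adjusted p, 0.127, without replicate 3 of SF3a1 siRNA with LPS. Foxo4, a transcription factor that AKT inhibits, fell with LPS and control siRNA (-1.37) and was at -0.24 with SF3a1 siRNA, an interaction of 1.13 (edgeR, adjusted p = 0.0588). It was lost without 8 of the 12 libraries in turn, with the highest adjusted p, 0.167, without replicate 1 of control siRNA without LPS. Il1b, which encodes the cytokine IL-1β and was read as a check of LPS, had an interaction of -3.31 (edgeR, adjusted p = 0.0413), from levels of 0.168 and 0.484 CPM without LPS and 3083 and 973 CPM with LPS for control and SF3a1 siRNA. Without replicate 1 of SF3a1 siRNA without LPS it was -2.26 (edgeR, adjusted p = 0.314), and without replicate 1 of control siRNA without LPS the adjusted p was 0.111. For Fcgr1, a macrophage marker, the interaction was -2.83 (edgeR, adjusted p = 0.00149, at most 0.006 under the alternatives), from an LPS effect of 2.83 with control siRNA and 0.0043 with SF3a1 siRNA. For Znfx1, named for its correlation with Pik3r5, it was -1.18 (edgeR, adjusted p = 0.0401, at most 0.0984), from LPS effects of 2.69 with control siRNA and 1.503 with SF3a1 siRNA.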

How the results depend on the processing

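None of the values called in the reported fit or under an alternative changed sign between them. Of 1295 values of single genes and bins under an alternative, 25, from 10 results, had the opposite sign and were called neither in the reported fit nor under that alternative, among them Pik3cd for SF3a1 siRNA without LPS (0.03 without replicate 1 of control siRNA without LPS) and the Akt1 interaction (-0.13 to 0.23). With the replicate number as a block, calls among the 9 genes went from 5 to 8 for LPS with control siRNA and from 1 to 3 for the interaction, and those among the pathway genes from 17 to 27, 7 to 16, 14 to 30 and 2 to 4 (LPS with control siRNA, LPS with SF3a1 siRNA, SF3a1 siRNA without LPS, interaction). Over all genes the block gave 3115 calls against 1598 for LPS with SF3a1 siRNA and 1756 against 520 for the interaction, where no filter gave 930 and DESeq2's Wald test 966. Over all bins the block gave 285 against 123, 105 against 39, 2113 against 961, 1793 against 756 and 2 against 0. With only the 2 groups compared, 22 pathway genes were called without LPS and 13 with LPS for SF3a1 siRNA, against 14 and 21. limma voom and diffSplice called 1 member bin in each SF3a1 siRNA comparison (3 and 2 with edgeR), 21 bins for LPS with SF3a1 siRNA and 1 for the interaction. With the bins counted as retained introns alone, which leave out the called Akt1 bin, 0 members had a higher intron share without LPS. With the called bins left out, an alternative chosen after seeing the data, the number was 0 without and 0 with LPS. The reported number was 1 in each. The causes were not tested.

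Leaving out 1 library at a time, in the order LPS with control siRNA, LPS with SF3a1 siRNA, SF3a1 siRNA without and with LPS, and interaction, members called ranged from 4 to 6, 3 to 3, 1 to 3, 3 to 4 and 0 to 1. Pathway genes ranged from 13 to 20, 3 to 9, 5 to 18, 13 to 20 and 0 to 4, and all genes from 3985 to 5023, 1050 to 2005, 3881 to 5627, 4744 to 5993 and 273 to 711. Member bins ranged from 1 to 3 and 1 to 2 in the SF3a1 siRNA comparisons, and all bins from 49 to 158, 26 to 42, 527 to 1131, 101 to 888 and 0 to 3, with the 49 and the 101 both without replicate 1 of control siRNA with LPS, which left 1 library in that group, assumed to vary like the other groups. Class shares without overlap ranged from 2 to 5, 2 to 4, 2 to 4 and 5 to 6, and members with a higher intron share from 1 to 3 in both. The Akt1 and Pik3cb bins had under 50 counts in every library, as the Pik3r5 bin had in the control siRNA libraries.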
